A study of Caenorhabditis elegans with 4 samples.

Results

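The regions described here are narrow DPY-26 peaks on the X chromosome of Caenorhabditis elegans that recurred in both ChIP replicates. They were chosen from the series-wide peak list as X peaks under 800 bp wide that were overlapped, by at least 1 bp, by a peak of each replicate list. There were 937 of them among 9365 peaks in the series-wide list, and among 8498 on X. The study profiled DPY-26 by chromatin immunoprecipitation and sequencing (ChIP-seq) in N2 embryos of mixed stages, grown at 20 °C. It comprised 2 ChIP samples, made with a polyclonal rabbit antibody raised against the protein, and 2 input DNA samples. All 4 samples share the strain, stage and wild-type genotype, and the labels call the population mixed male and hermaphrodite. Whether the replicates were separate cultures is not stated in the labels, and the input samples were not analysed here.

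DPY-26 is the kleisin subunit of the condensin that belongs to the dosage compensation complex, and it is also part of the mitotic condensin I. The dosage compensation complex coats the 2 X chromosomes of the hermaphrodite, where it reduces gene expression. In the accepted picture it is first recruited at a limited set of strong X sites, called rex sites, and spreads from there to weaker sites, many of them at promoters. Males do not assemble it on their X. Peaks are named here by their position on WormBase WS220. They were not assigned to genes or to known recruitment sites, since the only gene annotation used here is of the assembly WBcel235.

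The width, the position and the overlap of a peak chose the members, so these are given as descriptions. The same holds for scores, since high-scoring peaks recurred more often. The score is the authors' value for a peak. No source used here says what it measures, and the series-wide and replicate lists do not share a scale. Read depth is unknown. Peaks of 1 list are not replicates, and only 2 lists each come from 1 ChIP sample. Classes of peaks are therefore set side by side with exact 95% Clopper-Pearson intervals, which cover counting error only, and with no test.

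Narrow X peaks were common and recurring ones were the minority. Of all X peaks, 7937 (93.4%) were under 800 bp, and 11.8% of these recurred in both lists. They made up 937 of the 1340 recurring X peaks, or 69.9% (67.4% to 72.4%), with 403 recurring peaks of 800 bp or more. On each of the autosomes 8.64% to 28.6% of narrow peaks recurred. Replicate 1 set the membership. Of 967 narrow X peaks in its list, 96.9% (95.6% to 97.9%) were also in the replicate 2 list, whereas of 5628 narrow X peaks in the replicate 2 list only 16.6% (15.7% to 17.6%) were in that of replicate 1.

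Recurrence rose with width over the whole narrow range. Among X peaks under 200 bp, 12 of 2014 (0.596%) recurred in both lists. The share was 5.68% (83 of 1460) from 300 bp to under 400 bp, 38.8% (254 of 655) from 500 bp to under 600 bp and 62.8% (179 of 285) from 700 bp to under 800 bp. It went on past the limit without a break, with 68.4% (212 of 310) from 800 bp to under 1000 bp. The limit of 800 bp therefore cuts a continuous range: the widest members were 798 bp and the narrowest recurring peaks beyond the limit 801, 802 and 804 bp. There were 84 members of 750 bp or more, and 63 recurring peaks from 800 bp to under 850 bp.

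**Figure D1:**
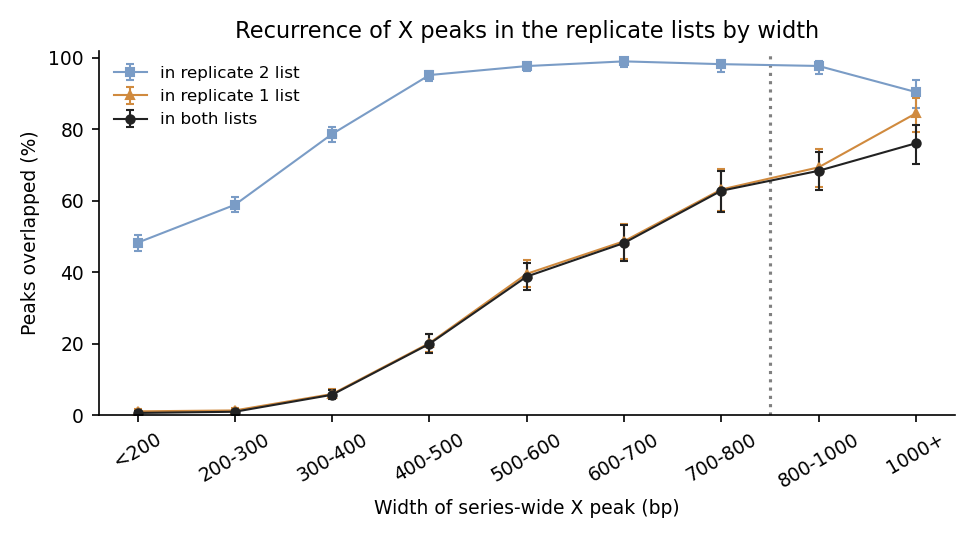
Share of series-wide X peaks overlapped in the replicate 1 list, the replicate 2 list and both, by peak width, with exact 95% intervals. The dotted line marks 800 bp; the share in both lists follows that of replicate 1, from 0.596% under 200 bp to 62.8% just under the limit, while the replicate 2 share is 95.2% or more from 400 bp to under 1000 bp.

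Nearly every narrow X peak of high score recurred. At series-wide scores from 50 to 100, 252 of 262 narrow X peaks (96.2%, 93.1% to 98.2%) and 149 of 155 peaks of 800 bp or more (96.1%, 91.8% to 98.6%) recurred. All 41 narrow X peaks above 100 did so. Between 20 and 50 the shares were 54.2% (50.4% to 58.0%) of narrow and 78.8% (71.6% to 85.0%) of wide peaks. Between 10 and 20 they were 13.2% and 26.5%. Width and recurrence chose the members, so these shares are descriptions. The difference between narrow and wide peaks was not tested.

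The members had a median width of 566 bp (interquartile range 466 to 668 bp, lowest 146 bp). Their series-wide scores ran from 1.37 to 154.42 with a median of 31.7 (18.1 to 57.7). Narrow X peaks found in the replicate 2 list alone had a median width of 311 bp and a median score of 6.8, and those in neither list 208 bp and 4.56. Recurring peaks of 800 bp or more had a median score of 61.6. Within the members, score and width were correlated (Spearman rho = 0.464 across 937 peaks). Members under 400 bp, 115 in number, had a median score of 12.8, against 49.9 for the 179 members of 700 bp or more.

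The word narrow holds in only one of the replicate lists. Each member was met by exactly 1 peak of each list. The replicate 1 peaks had a median width of 453 bp, and 922 of the 937 were under 800 bp (98.4%). The replicate 2 peaks had a median of 1582 bp, and 1 of the 937 was under 800 bp. The mean of the medians was 1017.5 bp ± 798 (SD, n = 2). The replicate 2 list as a whole held 5 X peaks under 800 bp out of 3652, the narrowest being 722 bp, and its peaks covered 36.9% of X against 4.66% for replicate 1. How much overlap with replicate 2 such coverage would give by position alone was not tested.

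The centres of the peaks agreed closely in replicate 1 and less so in replicate 2. The midpoint of the replicate 1 peak lay a median of 43.5 bp from that of the member, and within 200 bp for 898 of 937 (95.8%). For replicate 2 the median distance was 154 bp, and 501 (53.5%) were within 200 bp. The replicate 2 peak covered the member entirely in 936 cases, while the replicate 1 peak covered a median of 76.1% of it. Both lists were shifted to the right of the members, by a median of 14.5 bp and 18.5 bp, with 567 of the 937 midpoints on the right in each.

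**Figure D2:**
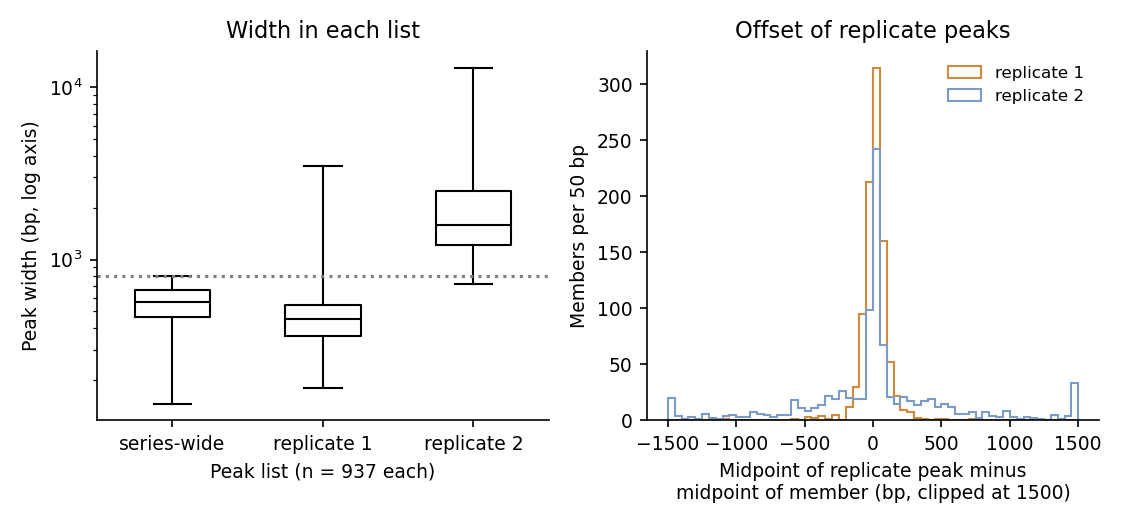
Left, widths of the 937 members and of the replicate peaks that meet them (box, quartiles and median; whiskers, lowest and highest; log axis; dotted line at 800 bp). Right, distance from the midpoint of each member to that of its replicate peak in bins of 50 bp, values beyond 1500 bp gathered in the end bins; replicate 1 forms a single narrow peak and replicate 2 adds broad shoulders.

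Not every member was a separate recurrence. The 937 members lay under 917 distinct replicate 1 peaks and 860 distinct replicate 2 peaks. For 483 members (51.5%, 48.3% to 54.8%) neither replicate peak met any other series-wide X peak. The remaining 454 shared a replicate peak with another series-wide peak, in the replicate 2 list in every case and in the replicate 1 list in 46. A replicate 2 peak that also met a peak of 800 bp or more stood over 86 members (9.18%). Among the 483 unshared members, 425 replicate 2 midpoints (88.0%) lay within 200 bp, and the median replicate 2 width was 1221 bp.

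Replicate scores of the members were correlated with each other across peaks, with Spearman rho = 0.559 and Pearson r = 0.550 on a log10 scale (n = 937). Among the 483 unshared members the values were 0.776 and 0.774. These are descriptions, since both lists chose the members and a shared replicate 2 peak gives several members 1 score. The median member score was 117 in replicate 1 and 514 in replicate 2. The highest-scoring 10% of X peaks met 26 members in replicate 1 and 203 in replicate 2. A score of 3100, which several X peaks share, was held by 18 members in replicate 2, and no member reached it in replicate 1.

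Most members neither stood entirely alone nor flanked a wide peak. Within 2000 bp, measured between peak ends, 122 members (13.0%, 10.9% to 15.3%) had an X peak of 800 bp or more. Another 138 (14.7%, 12.5% to 17.2%) had no other X peak of any width. The other 677 (72.3%) had narrow peaks only. Over all 7937 narrow X peaks, 12.4% had a wide peak within that distance and 10.3% had no peak. The share beside a wide peak among members is thus close to that of narrow X peaks at large.

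Of the members beside a wide peak, 112 had it on 1 side and 10 on both. The 10 were 1.07% of members, against 1.18% of all narrow X peaks. A wide peak lay on the left only for 53 members (5.66%) and on the right only for 59 (6.30%). Over all narrow X peaks these shares were 5.53% and 5.73%. A wide peak that itself recurred in both lists lay within 2000 bp of 96 members (10.2%), against 8.91% of all narrow X peaks. Narrow X peaks found in the replicate 2 list alone were beside a wide peak in 14.5% (13.5% to 15.6%) of cases, those in neither list in 7.37% (6.33% to 8.52%), and recurring wide peaks had another wide peak within 2000 bp in 24.8% (20.7% to 29.3%). The median gap from a member to the nearest wide X peak was 11131 bp (interquartile range 4501 to 24246 bp). For narrow peaks of the replicate 2 list alone it was 11034 bp, and for recurring wide peaks 7361 bp.

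Standing alone was less common among narrow peaks of the replicate 2 list alone, at 6.25% (5.57% to 6.98%). It was 16.9% (15.4% to 18.5%) among those in neither list and 12.2% (9.13% to 15.8%) among recurring wide peaks. A member's nearest other X peak lay at a median gap of 671 bp, against 609 bp for all narrow X peaks. It lay within 500 bp for 380 members (40.6%), against 43.6% of all narrow X peaks. No other X peak lay within 5000 bp of 7 members (0.747%), against 0.491%.

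**Figure D3:**
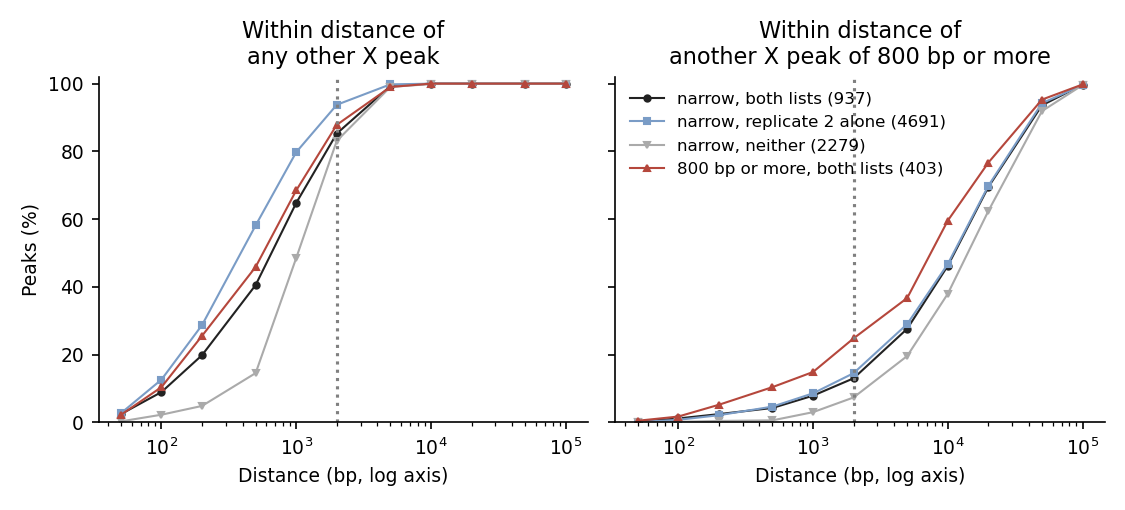
Cumulative share of X peaks with another X peak (left) or another X peak of 800 bp or more (right) within a given distance, on a log axis, for 4 classes of peaks. The dotted line marks 2000 bp, where members stand at 13.0% on the right, close to narrow peaks of replicate 2 alone at 14.5% and below recurring wide peaks at 24.8%.

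The X peak nearest to a member was in the replicate 2 list alone in 553 cases (59.0%), close to the 61.5% of all narrow X peaks. It was in both lists for 216 (23.1%), against 14.9% of all narrow X peaks and 20.8% of recurring wide peaks. It was in neither list for 165 (17.6%), against 23.1% of all narrow X peaks. It scored lower than the member in 774 cases (82.6%), against 47.9% for all narrow X peaks and 90.1% for recurring wide peaks. In 72 cases (7.68%) it was 800 bp or more wide, against 6.21% for all narrow X peaks. Of the 799 members with a neighbour within 2000 bp, 550 scored above all of those neighbours (68.8%, 65.5% to 72.0%). The same was true of 30.0% of all narrow X peaks with such a neighbour, of 27.3% of those in the replicate 2 list alone, and of 80.5% of recurring wide peaks. Score was tied to recurrence, so these shares describe local maxima of the list and support no ranking of the classes.

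Members standing alone had higher series-wide scores than members with neighbours. The 138 without a peak within 2000 bp had a median score of 54.5 (lowest 6.48, highest 139.22). The 677 with narrow neighbours only had a median of 30.6, and the 122 beside a wide peak 24.3. The 3 ranges overlapped widely. Replicate 1 gave the same order, with medians of 176, 114 and 99.4. In replicate 2 the order differed, with 534, 461 and 981, and there the peak over the member also met a wide peak for 81 of the 122. Among unshared members the replicate 2 medians were 534 for those alone, 330 beside narrow peaks only and 369 for the 26 beside a wide peak. In the series-wide list the unshared medians were 54.5, 30.8 and 32.8, and in replicate 1 they were 176, 104 and 110.

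**Figure D4:**
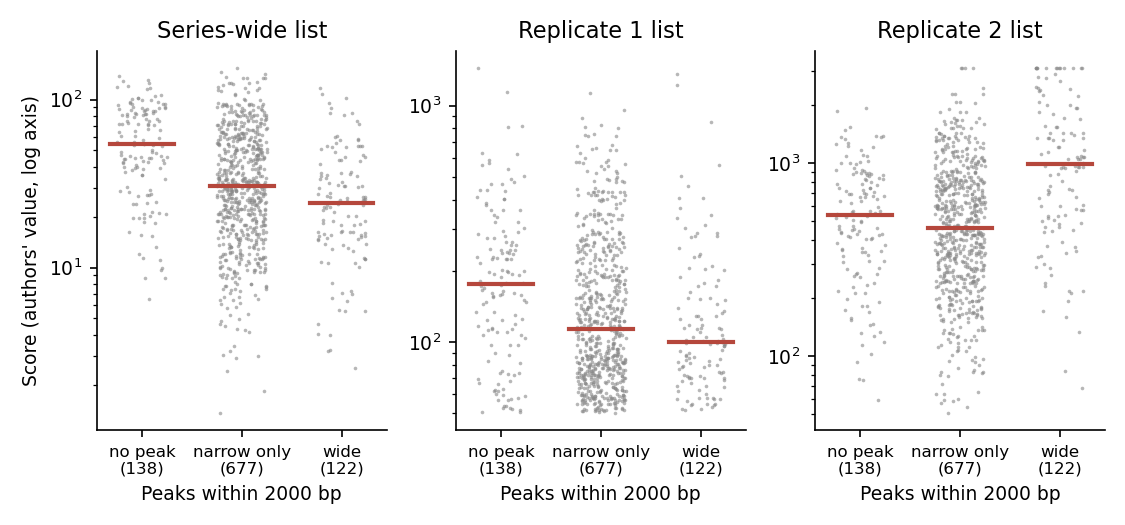
Score of each member in the 3 lists (log axes, a separate scale for each list) by what lies within 2000 bp in the series-wide list; each point is a member and each bar a median. Members with no peak nearby have the highest median in the series-wide list (54.5) and in replicate 1 (176), while in replicate 2 the highest is that of members beside a wide peak (981).

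Standing alone also depended on the list. Within the replicate 1 list 655 members (69.9%) had a peak with no other of that list within 2000 bp, and within the replicate 2 list 244 (26.0%) did. Over all X peaks of each list the shares were 63.2% (917 of 1451) and 24.7% (902 of 3652). The difference between the lists is thus present in their X peaks at large. In all 3 lists 93 members (9.93%, 8.09% to 12.0%) stood alone. The same 93 stood alone in the series-wide and replicate 2 lists, so the replicate 1 list removed none. The matching share of all narrow X peaks was not computed. The 93 had a median series-wide score of 54.8, a median width of 614 bp and median replicate widths of 452 bp and 1280 bp. They were spread over X, with 32, 37 and 24 in its left, middle and right parts of equal length. The highest-scoring of them, picked after its values were seen, was the member at X 13665041 to 13665834.

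That member had a series-wide score of 139.22. Its replicate 1 peak was 732 bp wide with a score of 1442.52, the highest replicate 1 score of any member, and its replicate 2 peak was 1485 bp wide with a score of 1852.89. The nearest other X peaks lay 2660 bp to the left and 2721 bp to the right.

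The highest-scoring member of all was at X 767851 to 768465, 615 bp wide, and its scores were 154.42 (series-wide), 658 (replicate 1) and 1599.67 (replicate 2). A second X peak lay 95 bp from it, and no wide peak lay within 16308 bp. It was followed by X 13995467 to 13996162 (score 146.7), which had 270 in replicate 1 and 1429.68 in replicate 2, and by X 5800923 to 5801667 (score 142.28), which had 954.5 and 2432.29. Both had a neighbouring peak within 44 bp, about the smallest spacing that the series-wide list holds, 43 bp. Whether such pairs are 1 region that the caller divided was not tested.

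The remaining members of the highest 10 included X 14312225 to 14312799 with a score of 136.71, X 2809494 to 2810214 with a score of 134.8 and X 14813332 to 14814063 with a score of 134.37. The others scored 134.02 at X 14479892 to 14480673, 133.78 at X 10963341 to 10964099 and 130.91 at X 949285 to 950053. None of the 10 had a peak of 800 bp or more within 2000 bp, the closest being 2212 bp from X 14813332 to 14814063. The share with such a peak was 13.0% over all members and 7.85% (23 of 293) over members scoring 50 or more. A set of 10 is too small to differ clearly from these shares. The replicate 1 peaks of the 10 were 466 to 769 bp wide, and their replicate 2 peaks 1197 to 2966 bp. Replicate 1 scores ran from 270 to 1442.52 and replicate 2 scores from 1063.79 to 2432.29.

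The 5 most isolated members had series-wide scores from 19.7 to 94.6. The longest gap to any other X peak, 8751 bp, belonged to X 9347352 to 9347977, with scores of 53.0, 158.5 and 560.05 in the series-wide, replicate 1 and replicate 2 lists. X 481114 to 481574 lay 6612 bp from its nearest neighbour with scores of 19.7, 63.2 and 114. X 12393534 to 12394207 lay 6556 bp from its own with 94.6, 465 and 1538.68. X 9917238 to 9917750 and X 7193739 to 7194515 followed, with gaps of 5282 and 5270 bp and series-wide scores of 61.1 and 79.6.

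At the other end, 21 members had a series-wide score under 5. Of these, 19 (90.5%) shared their replicate 2 peak with another series-wide peak, against 454 of all 937 members (48.5%). The lowest were X 15131765 to 15132003 (1.37), X 64892 to 65094 (1.85) and X 6668705 to 6668850 (2.43), at 239, 203 and 146 bp. Each lay within 686 bp of another peak, and their replicate 1 scores were 73.9, 68.1 and 66.2. Of the 10 members with a wide peak on both sides, X 8156972 to 8157456 scored highest (43.2). It was followed by X 2702897 to 2703518 (19.0) and X 11059754 to 11060156 (16.3). These lay under replicate 2 peaks of 3460, 6615 and 4497 bp.

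Just inside the width limit, the members of 798 bp scored 57.5 at X 1081691 to 1082488, 47.1 at X 6504712 to 6505509 and 90.95 at X 15600385 to 15601182. Just outside the limit, the recurring peaks at X 2949902 to 2950702 (801 bp), X 2374774 to 2375575 (802 bp) and X 16401718 to 16402521 (804 bp) scored 18.0, 47.6 and 16.8.

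Members occurred from end to end of X. Its left part held 314 of them, its middle part 296 and its right part 327, or 11.0%, 10.7% and 11.3% of the X peaks there. Over 17 complete windows of 1 Mb there were 53.4 ± 7.0 members per window (SD), from 36 in the first window to 64 in the window that began at 2 Mb. Relative to its mean this spread was 13.1%, against 12.0% for all X peaks and 29.4% for recurring wide peaks, of which a window held 11 to 32. The mean counts per window were 53.4, 481 and 23.1. Counting error is relatively larger for smaller counts, so these spreads do not rank the classes by evenness. The last, incomplete window held 30 members, or 41.7 per Mb. The first window also held the fewest X peaks, 319, and its members made up 11.3% of them. That share ran from 9.65% to 13.7% over the complete windows, with the most in the window that began at 14 Mb.

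**Figure D5:**
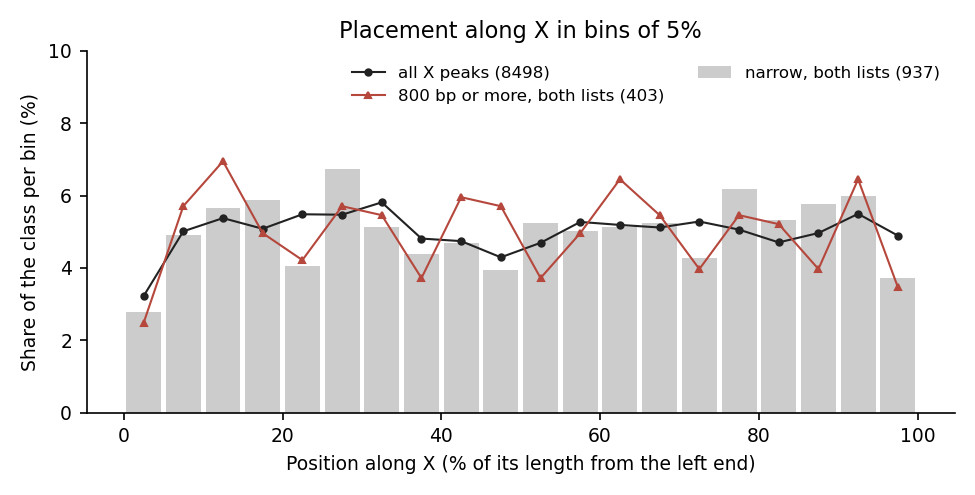
Share of each class of X peaks per bin of 5% of the length of X, from the left end; bars are the 937 members and lines all X peaks and recurring X peaks of 800 bp or more. Both members (2.77%) and all X peaks (3.22%) have their lowest bin at the left end; bins differ elsewhere, as at 20% to 25% (4.06% of members, 5.48% of all X peaks) and 75% to 80% (6.19% and 5.06%).

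Each window held a member that scored 99.8 or more. The lowest of these maxima was at X 8604808 to 8605418, in the window that began at 8 Mb. In the first window the highest was X 767851 to 768465 (154.42), and in the last window X 17391855 to 17392609 (122.44). Further window maxima scored 117.12 at X 1964542 to 1965306, 125.77 at X 3371203 to 3371901, 127.46 at X 4711589 to 4712385 and 111.07 at X 6593145 to 6593921. A score of 125.77 was also held by X 7500819 to 7501363, and X 9296415 to 9297044 had 107.35. Towards the right end the maxima scored 108.65 at X 11946980 to 11947621, 125.2 at X 12105747 to 12106498, 119.35 at X 15173359 to 15174076 and 124.3 at X 16726512 to 16727244. The remaining windows had a member of the highest 10 as their maximum. Among these window maxima 1, X 11946980 to 11947621, had a wide peak within 2000 bp, at 97 bp. The share over all members was 13.0%, and the maxima are too few to differ clearly from it.

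The median spacing of neighbouring members was 11005.5 bp, with quartiles at 4305.75 and 24786 bp. The median was 23397.5 bp between the 403 recurring wide peaks and 7486 bp between the 1340 recurring X peaks of any width. Spacing depends on the number of peaks, which differs between these classes. Among the 1339 pairs of consecutive recurring X peaks, 667 joined 2 members, 538 a member and a wide peak, and 134 were both wide. Members were 69.9% of the recurring X peaks, and these counts were not compared with a random order. Of 936 spacings between members, 134 were 2000 bp or less and 5 exceeded 100000 bp. At 2000 bp, 696 members stood apart from every other member, 172 formed 86 pairs, and 69 lay in runs of 3 or 4.

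The longest run in which no spacing exceeded 10000 bp held 9 members, from X 14479892 to 14518129. Their scores ran from 16.3 to 134.02 with a median of 53.4, among 27 X peaks of which 1 was wide. Runs of 8 lay at X 3181274 to 3227360, with no wide peak, and at X 12160241 to 12195715, with 3. A run of 6 at X 8551451 to 8569566 held only 7 X peaks in all and none wide, and its median score was 54.0.

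The longest stretch of X without a member was near the left end, from 65095 to 319505 (254411 bp). It held 26 X peaks, 3 of them recurring and wide, with a median score of 5.17, and 4 replicate 1 and 9 replicate 2 peaks. The next was X 12750158 to 12872099 (121942 bp), with 54 X peaks but only 3 replicate 1 peaks. The third, X 7324219 to 7430157 (105939 bp), held 40 X peaks and 13 replicate 1 peaks, and its highest score was 112.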

How the data were processed

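The submitters' processing notes name BWA as the aligner and ce10 as the build. Positions are on WormBase WS220, and peaks come from MACS (replicate lists) and MACS v2 (series-wide list), per the file headers and columns. The deposited score is the authors' value for each peak. Its definition, the caller's threshold, any use of input and any pooling remain unknown (not given in the sources used here), and the series-wide list cannot be taken as independent of the replicates.

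Overlaps, gaps and intervals were computed with scipy 1.17.1, pandas 2.3.3 and numpy 2.4.6 under Python 3.11.15, by functions tested on simulated lists. Gaps are bases between peak ends. Windows and parts of X use peak midpoints and a length of 17718897 bp, the largest coordinate in the lists. Members and regions were chosen with earlier results of these data known. The rule for named regions takes the 10 highest-scoring members, the best of each 1 Mb window, the 5 most isolated, the 3 widest, the 3 lowest-scoring, the 3 best between wide peaks, the 3 recurring peaks closest above 800 bp and the 3 longest stretches. The search for a sequence motif planned for a genome of the build of the files was not run.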

Additional observations from a re-analysis of the deposited data

How the results depend on the processing

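Of 76 alternative values for 7 results, 32 stayed within the 95% interval of the value given (or, for counts and densities, within 1.5 times) and 44 moved. Results are given in the order count, share beside a wide peak, share alone, median spacing, share with a shared replicate peak, members per Mb, and rho between replicate scores. A width limit of 600 bp gave 560 peaks, 28.4% (a wide neighbour then being 600 bp or more), 11.8%, 19357 bp, 31.9 per Mb and rho 0.401. A limit of 1000 bp gave 7.31% beside a wide peak (then 1000 bp or more) and 9161 bp. Replicate midpoints within 200 bp gave 494, 5.26%, 23.3%, 20552 bp, 14.4%, 28.1 and 0.760. Merging peaks within 500 bp gave 572, 23.4%, 24.1%, 18342 bp, 14.7%, 32.5 and 0.715. Unshared members alone, an alternative chosen after seeing the data, gave 483, 5.38%, 28.6%, 21639.5 bp, 27.5 and 0.776. Keeping only the highest-scoring 50% of X peaks, both as members and as possible neighbours, left 33.7% alone and 33.4% shared. Replicate lists of equal number gave 13405 bp, 54.8% shared (counted in the full lists) and rho 0.476. Distances of 1000 and 5000 bp put 7.90% and 27.6% beside a wide peak and 35.2% and 0.747% alone. Wide neighbours in both lists only gave 10.2%, and sharing counted with wide peaks only gave 9.18%. Requiring 50% of a member to be covered moved none of the 7.

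Without ChIP replicate 2 or without ChIP replicate 1, the count was 967 to 5628, the share beside a wide peak 14.27% to 14.29%, the share alone 7.66% to 14.6%, the spacing 1291 to 10767.5 bp, the shared 48.9% to 66.5% and the density 54.9 to 318 per Mb. Leaving out a list changed only the membership. Sharing was still counted in both lists, so the shared values do not show sharing without either list. Of the 937 members, 46 shared a replicate 1 peak and 454 a replicate 2 peak. Without replicate 1 the values were 5628, 14.29%, 7.66%, 1291 bp, 66.5% and 318, so replicate 1 decides the membership. The causes of the values that moved were not tested, and the stricter rules also leave smaller sets. No paired analysis was possible because the input samples had no lists and no result comes from a test. Read depth is unknown, and the numbers of peaks may depend on it.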
